A study of Mus musculus with 4 samples.

Results

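The cytochrome P450 genes of families 1 to 3 encode the membrane-bound haem enzymes that oxidize drugs, foreign chemicals, steroids and fatty acids. They were chosen by name alone, as genes whose symbol starts with Cyp1, Cyp2 or Cyp3 and a subfamily letter, with pseudogenes marked as such in the symbol left out. The arrays held a matched probe for 59 of them, among 23462 named genes in all, in 17 subfamilies. A further 3 symbols of the reference, Cyp2j7, Cyp2j12 and Cyp3a41b, had no matched probe. Whole liver of male mice, fasted for 12 h before death, was measured in 4 groups with 1 array each. The first group was natural aging mice. The second was aging diabetic mice, and the others were mice with the same condition that were given metformin, or metformin together with astragalus polysaccharide (APS). Metformin is a biguanide that lowers blood glucose, and APS is a plant polysaccharide. The labels do not give the strain, the age, how diabetes was induced, the doses, or how many mice each RNA represents. No group received APS alone, and what the 60 days named in the titles refer to is not given.

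These enzymes sit in the endoplasmic reticulum and take electrons from the reductase encoded by Por, and each carries a haem group whose synthesis begins with Alas1. Their genes are read out by ligand-sensing receptors: the aryl hydrocarbon receptor (AhR, gene Ahr) acts on family 1, the constitutive androstane receptor (CAR, gene Nr1i3) on Cyp2b genes, and the pregnane X receptor (PXR, gene Nr1i2) on Cyp3a genes. In mouse liver several members also differ between the sexes and between the portal and central ends of the lobule. Many of the genes lie in clusters of close copies, so a probe may hybridize to more than 1 of them, which could not be checked because probe sequences were not used here.

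Each value is the log2 of the spot's processed signal minus the log2 of its array's 75th percentile, so 0 is the level that 75% of the probes lie below and 1 unit is 2-fold. With no replicates there was no test, and "higher" and "lower" describe these 4 arrays only. A gene was counted at a difference of 1 or more in size. The error given with a difference joins the signal errors of both spots, covers measurement only, and had a median of 0.163 over the P450 genes in aging diabetic against natural aging. Spots that the image software marked as outliers gave values that are printed as such and not counted. Such a spot occurred on at least 1 array for 27 of the 59 genes (45.8%), against 10.1% of all named genes, and no spot was saturated. A probe was well above background on all 4 arrays for 53 P450 genes, on some arrays for 3 and on none for 3. The number of arrays limits the precision of every value. In bulk liver RNA, fewer cells of a type and less RNA per cell cannot be told apart. Of the 6 hepatocyte markers, the 2 with no outlier spot summed to 53.4, 44.8, 34.7 and 47.2 times the 75th percentile on the natural aging, aging diabetic, metformin and APS plus metformin arrays, the order used for all series of 4 values below. Pancreatic acinar markers, which liver should lack, summed over 6 of their 7 genes to 62.0, 3.32, 13.1 and 0.351, and the 3 lung markers were well above background on the metformin array and on no other.

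**Figure D1:**
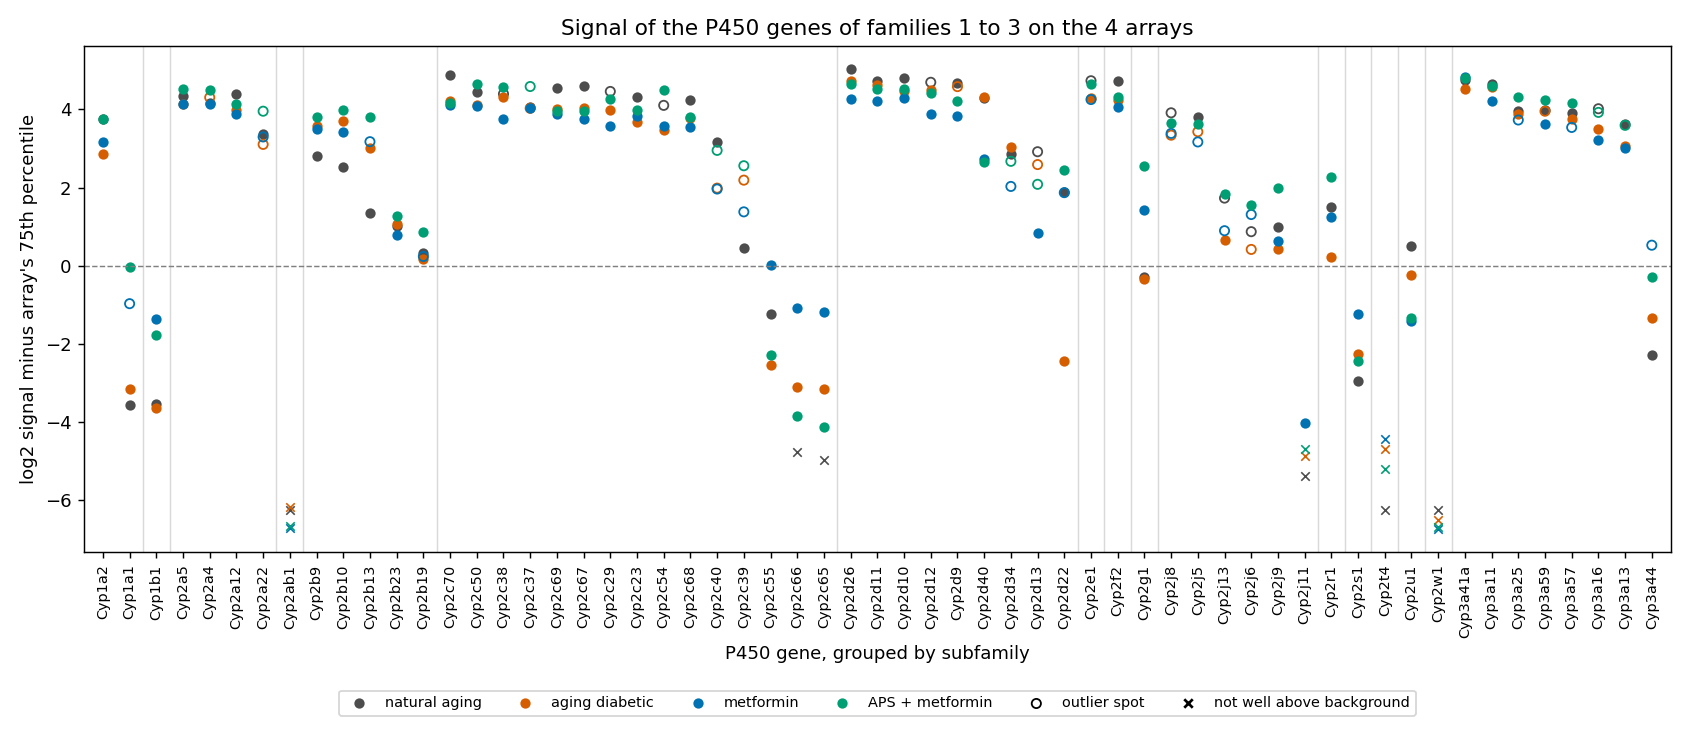
Log2 signal relative to each array's 75th percentile (vertical axis) for the 59 P450 genes (horizontal axis, grouped by subfamily, brightest first), with 1 point per array; open circles are outlier spots and crosses are not well above background. Most points lie above 0 and close to each other, while genes such as Cyp1a1, Cyp1b1, Cyp2b13, Cyp2c55, Cyp2c65, Cyp2c66, Cyp2d22, Cyp2g1 and Cyp3a44 are spread over more than 2 units.

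Most of the P450 genes were bright and similar on all 4 arrays. All 4 signals lay above the 75th percentile for 45 of the 59 genes (76.3%), against 32.7% of all named genes. A difference of 2-fold or more in at least 1 of the 6 comparisons was counted for 17 genes, while 39 detected genes had none counted. These 39 include genes that outlier spots kept out of every comparison, such as Cyp2c39 and Cyp2c40, so not all of them were flat. The share of all genes counted in at least 1 of the 6 comparisons is not given here, so the 17 cannot be read against it. Shares of all genes past 2-fold in each single comparison are given below. The plot of all genes by subfamily shows the bright, flat majority beside a smaller set of spread genes. Not well above background on any array were 3 genes, Cyp2ab1, Cyp2t4 and Cyp2w1. Cyp2j11 was well above background on the metformin array alone, at -4.03.

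The brightest enzymes of drug, bile acid and ethanol metabolism were among those that stayed within 2-fold. Cyp2d26, of the subfamily that oxidizes many basic drugs, was at 5.04, 4.73, 4.27 and 4.66. Cyp3a41a, a female-predominant steroid hydroxylase, was at 4.75, 4.53, 4.83 and 4.82. The mice were male, and whether the Cyp3a41a probe also reads close copies could not be checked. Cyp3a11, the principal PXR-inducible enzyme of mouse liver, was at 4.66, 4.58, 4.22 and 4.61. The ethanol oxidase Cyp2e1 was at 4.73, 4.29, 4.25 and 4.66, of which the natural aging and metformin spots were outliers. A second, dimmer Cyp2e1 probe with no outlier spot was at 4.46, 4.06, 3.76 and 4.22. Apart from Cyp3a41a, each of these genes had its lowest signal on the metformin array. After quantile normalization this held for Cyp2d26 only. On the metformin array, Cyp3a11 was then 0.13 above natural aging, and the first Cyp2e1 probe 0.19 above aging diabetic. Cyp2c70, which makes the muricholic acids of mouse bile, was at 4.89, 4.20, 4.11 and 4.16, and Cyp2a5, a coumarin hydroxylase, was at 4.35, 4.15, 4.14 and 4.51. Cyp2f2, a naphthalene oxidase of periportal hepatocytes, was at 4.72, 4.24, 4.06 and 4.32. In the subfamily of arachidonic acid epoxygenases, Cyp2j8 was brightest at 3.91, 3.34, 3.39 and 3.65, with outlier spots on all arrays but the last. These 4 genes were highest on the natural aging array except Cyp2a5, which was highest on the APS plus metformin array.

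Small shifts of the bright enzymes went with the scaling of the arrays. Among the 34 P450 genes with a mean level of 3 or more, a limit chosen after the values were seen, 20 of the 23 that could be compared were lower on the metformin than on the natural aging array, with a median of -0.52. Of all named genes that bright, 94.2% were lower in the same comparison, with a median of -0.44. After quantile normalization, which gives all arrays one distribution, the medians were 0.0053 for the bright P450 genes and 0.019 for all bright genes. Over all P450 genes compared, the median turned from -0.36 to 0.022 in metformin against natural aging, from -0.20 to 0.025 in aging diabetic against natural aging, and from -0.089 to 0.091 in metformin against aging diabetic. No direction is therefore given for the Cyp2a, Cyp2c, Cyp2d or Cyp3a subfamily as a whole.

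The aging diabetic and natural aging arrays differed 2-fold in few P450 genes. Higher in diabetes were Cyp2b10 and Cyp2b13, and lower were Cyp2c55, Cyp2d22 and Cyp2r1. The 2 higher genes of 37 compared stood beside 7.98% of all genes, and the 3 lower beside 6.21%. Both shares are near the background. The median was -0.20, against -0.059 over all genes.

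Metformin against aging diabetic gave 7 higher and 2 lower of 35 genes compared. The higher genes were Cyp1b1, Cyp2c55, Cyp2c65, Cyp2c66, Cyp2g1, Cyp2r1 and Cyp2s1, and the lower ones Cyp2d40 and Cyp2u1. Of all genes, 11.7% were higher and 3.46% lower. The median over the P450 genes was -0.089, against -0.013 over all genes.

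APS plus metformin against aging diabetic gave 9 higher and 2 lower of 41 genes compared. The higher genes were Cyp1a1, Cyp1b1, Cyp2c54, Cyp2d22, Cyp2g1, Cyp2j9, Cyp2j13, Cyp2r1 and Cyp3a44, and the lower ones again Cyp2d40 and Cyp2u1; this comparison shares the aging diabetic array with the previous one. Of all genes, 4.49% were higher and 6.7% lower. The 9 higher genes make 22% of those compared. The P450 median was 0.28, or 0.17 after quantile normalization, against 0.028 over all genes.

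Adding APS to metformin was compared directly as APS plus metformin against metformin. Here 3 of 36 genes were higher, Cyp2g1, Cyp2j9 and Cyp2r1, beside 2.37% of all genes. Another 4 were lower, Cyp2c55, Cyp2c65, Cyp2c66 and Cyp2s1, beside 11.8% of all genes, a share near that of the P450 genes (11.1%). The P450 median was 0.31, or 0.023 after quantile normalization, against 0 over all genes (0.044 with bounds left out).

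Against natural aging, the metformin array had 6 higher and 2 lower of 34 P450 genes, beside 12.5% and 4.74% of all genes. The APS plus metformin array had 7 higher and 3 lower of 39, beside 6.15% and 6.47% of all genes. The P450 median of the latter was 0.16, against -0.032 over all genes. It turned to -0.13 over the 26 P450 genes that were well above background on all 4 arrays with no outlier spot. Both comparisons share the natural aging array. The genes behind all of these counts are described below by subfamily and role.

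**Figure D2:**
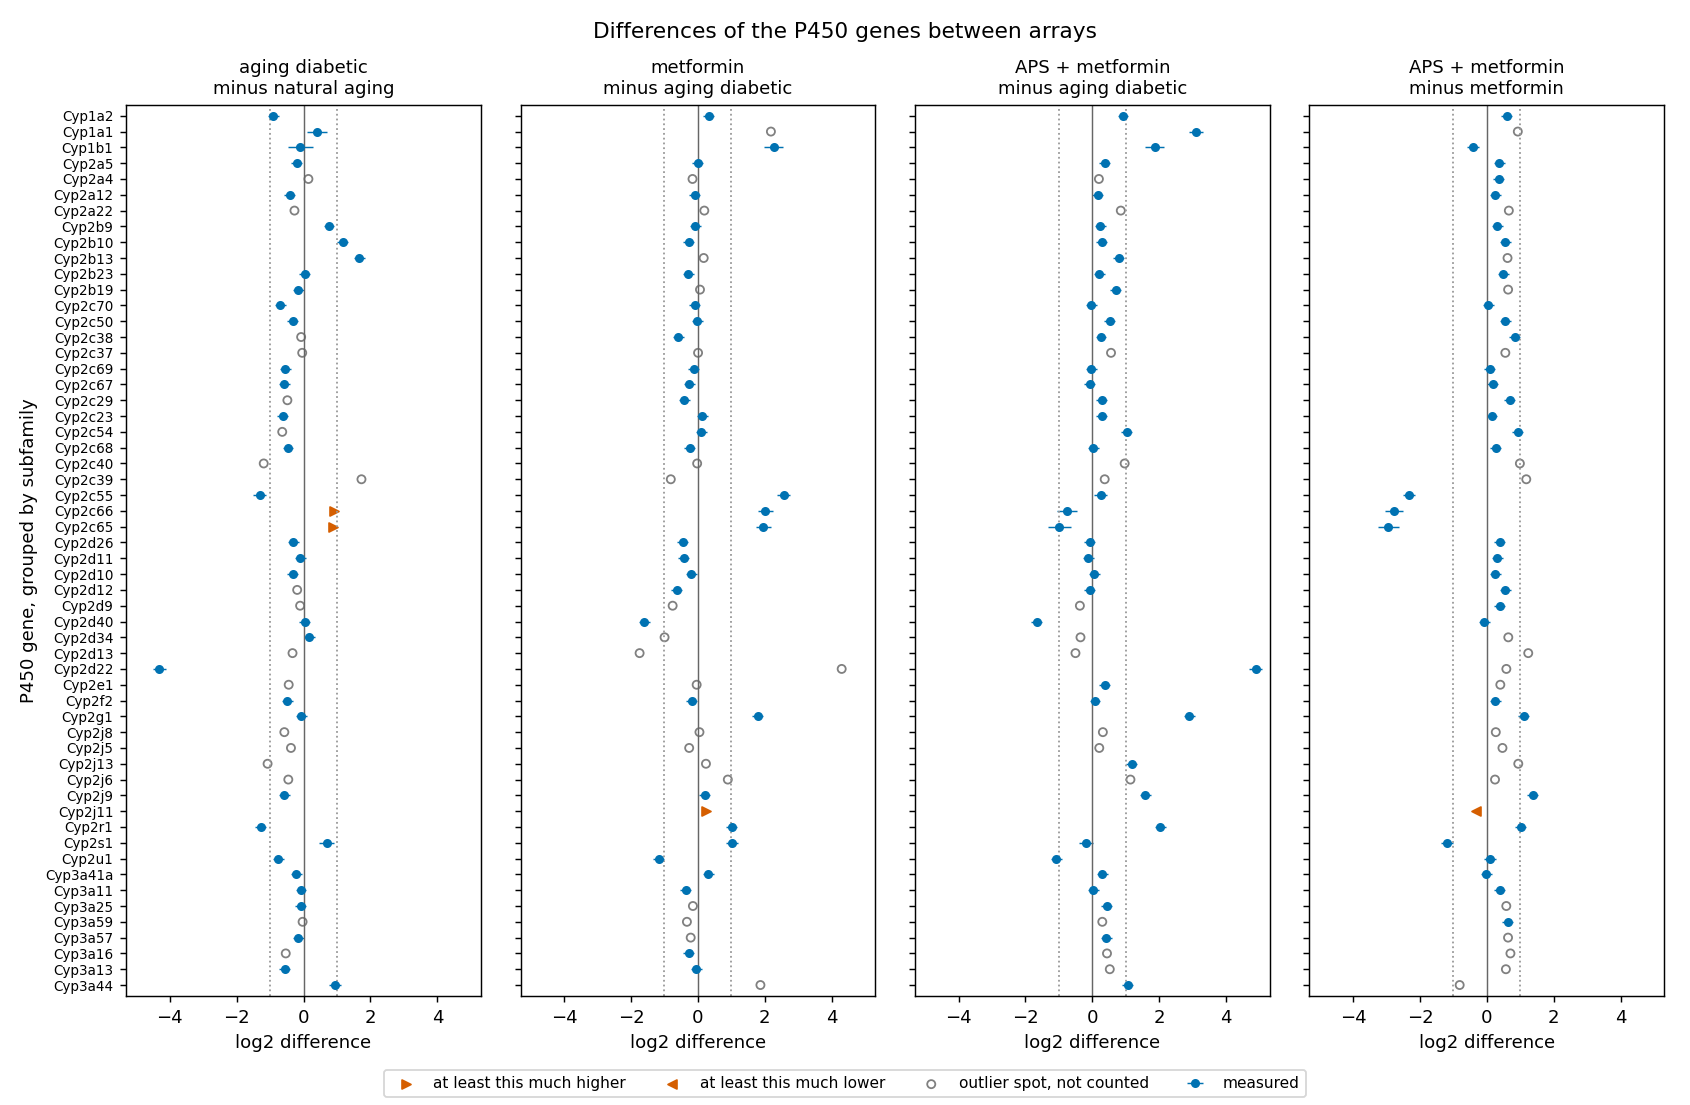
Log2 differences (horizontal axis) of the 56 P450 genes detected on at least 1 array, for 4 comparisons; filled points carry the measurement error of both spots, triangles are bounds, open circles involve an outlier spot, and dotted lines mark 2-fold. Cyp2d22 is the farthest point in both outer directions, at -4.31 in aging diabetic minus natural aging and 4.88 in APS plus metformin minus aging diabetic.

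Family 1 holds the targets of AhR that activate or clear planar aromatic compounds, and its 2 dim members were higher on both arrays with metformin. Cyp1a1, the most inducible of them, was at -3.56, -3.15, -0.97 and -0.042, with an outlier spot on the metformin array. It was 8.62-fold higher with APS plus metformin than in aging diabetic liver (error 0.212 log2) and 11.4-fold higher than in natural aging liver. The flagged metformin value lay 2.18 above the aging diabetic one and was not counted. Cyp1b1, which oxidizes estradiol and is found mainly in non-parenchymal cells, was at -3.55, -3.64, -1.37 and -1.78. It was 4.82-fold higher with metformin (error 0.283 log2) and 3.63-fold higher with APS plus metformin (error 0.286 log2) than in aging diabetic liver. Both genes were low and close together on the 2 arrays without metformin.

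Cyp1a2, the abundant hepatocyte member that oxidizes caffeine, did not follow them. It was at 3.76, 2.85, 3.17 and 3.76, highest on the natural aging and APS plus metformin arrays and lowest in aging diabetic liver. The difference between aging diabetic and natural aging, 1.88-fold lower, was short of 2-fold, as was the return with APS plus metformin, 1.89-fold higher.

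The 250 bases before the transcription start of the 3 genes (RefSeq, GRCm38.p6) are shown because they differ in the core of the AhR and Arnt binding site, GCGTG, searched on both strands and set in capitals in either orientation. Cyp1a1 lies at chr9:57697363-57697612, plus strand, Cyp1a2 at chr9:57683656-57683905, minus strand, and Cyp1b1 at chr17:79715062-79715311, minus strand.
Cyp1a1: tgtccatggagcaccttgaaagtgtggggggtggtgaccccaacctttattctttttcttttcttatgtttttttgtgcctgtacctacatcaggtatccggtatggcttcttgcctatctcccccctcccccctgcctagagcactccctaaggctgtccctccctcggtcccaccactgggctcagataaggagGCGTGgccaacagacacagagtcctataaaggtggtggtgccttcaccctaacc
Cyp1a2: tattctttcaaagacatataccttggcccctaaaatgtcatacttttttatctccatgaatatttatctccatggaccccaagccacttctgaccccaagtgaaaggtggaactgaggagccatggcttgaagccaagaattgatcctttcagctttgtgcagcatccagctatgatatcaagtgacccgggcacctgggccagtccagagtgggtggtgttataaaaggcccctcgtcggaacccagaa
Cyp1b1: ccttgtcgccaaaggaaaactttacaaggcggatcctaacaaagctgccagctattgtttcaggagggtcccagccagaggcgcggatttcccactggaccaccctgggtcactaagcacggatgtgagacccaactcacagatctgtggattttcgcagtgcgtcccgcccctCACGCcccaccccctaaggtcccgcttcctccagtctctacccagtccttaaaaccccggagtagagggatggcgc

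The core was found 54 bases before the start of Cyp1a1, 76 bases before that of Cyp1b1 on the other strand, and not in this window of Cyp1a2. It is a common word: 30.9% of the 27025 promoters of this length held it, and 9 of the 53 P450 promoters in the table (17.0%). The enhancers known to drive these genes lie farther away and are not covered.

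Other genes that AhR is known to act on did not share 1 pattern. Ahr itself was at 2.24, 1.86, 2.52 and 2.46, with an outlier spot on the metformin array. Nqo1, a quinone reductase, was at -1.48, 0.28, 1.26 and 1.14. Tiparp, which encodes an AhR-induced repressor of the receptor, was at 1.86, -1.70, -0.59 and -0.58. Nqo1 was lowest and Tiparp highest on the natural aging array. Ugt1a6a, a glucuronidation enzyme, was at -1.10, 0.67, 0.27 and 0.58. Aldh3a1 and the receptor repressor Ahrr were well above background on the metformin array alone. Of these 5 genes, 2 of 5 compared were higher with metformin than in aging diabetic liver, beside 11.7% of all genes; for Aldh3a1 this is a bound, since aging diabetic liver was not well above background. With APS plus metformin 1 of 3 compared was higher, beside 4.49% of all genes.

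Of the Cyp2b genes, the classic targets of CAR, Cyp2b9, Cyp2b10 and Cyp2b13 had higher signals on every diabetic array than in natural aging, while Cyp2b19 and Cyp2b23 did not. Cyp2b13, a female-predominant enzyme, was at 1.34, 3.0, 3.17 and 3.79, with an outlier spot on the metformin array. It was 3.16-fold higher in aging diabetic and 5.48-fold higher in APS plus metformin liver than in natural aging liver, with an error of 0.163 log2 in each case. Cyp2b10, the gene most used as a read-out of CAR, was at 2.54, 3.71, 3.43 and 3.99, which made it 2.25-fold and 2.74-fold higher in the same 2 comparisons. Cyp2b9 was at 2.81, 3.58, 3.49 and 3.81, 1.99-fold higher at most, just short of the count. In all 3 genes the natural aging array was the lowest, by at least 0.68. Relative to natural aging, Cyp2b9 and Cyp2b10 on the metformin array were 1.60-fold and 1.86-fold higher, and both passed 2-fold after quantile normalization (differences of 1.02 and 1.20).

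The dimmer members moved less. Cyp2b23 was at 1.02, 1.06, 0.78 and 1.27, and Cyp2b19, an arachidonic acid epoxygenase of skin, was at 0.33, 0.18, 0.24 and 0.88. All 5 Cyp2b genes were higher with APS plus metformin than in either aging diabetic or natural aging liver, by 0.20 to 0.79 and by 0.24 to 2.45. The direction, though not these sizes, was the same under all scalings tried. A second Cyp2b10 probe was dimmer, at -1.11, 2.18, 0.79 and 2.09 with outlier spots on the aging diabetic and metformin arrays, and placed APS plus metformin 9.18-fold above natural aging. A second Cyp2b19 probe was not well above background on any array.

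The 120 bases before the start of Cyp2b9, Cyp2b13 and Cyp2b10 (RefSeq, GRCm38.p6) show how alike these copies are. Capitals in Cyp2b10 mark the 30 bases that were not matched to the other sequences in a pairwise alignment. Cyp2b9 lies at chr7:26173289-26173408, plus strand, Cyp2b13 at chr7:26061375-26061494, plus strand, and Cyp2b10 at chr7:25897538-25897657, plus strand.
Cyp2b9: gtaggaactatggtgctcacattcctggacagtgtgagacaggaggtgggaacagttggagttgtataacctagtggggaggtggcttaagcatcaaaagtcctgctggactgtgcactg
Cyp2b13: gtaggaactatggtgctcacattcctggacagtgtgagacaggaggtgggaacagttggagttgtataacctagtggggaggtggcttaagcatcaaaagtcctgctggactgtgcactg
Cyp2b10: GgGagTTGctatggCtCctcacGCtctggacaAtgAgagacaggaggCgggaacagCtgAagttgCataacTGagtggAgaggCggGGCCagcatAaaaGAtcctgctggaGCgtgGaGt

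Cyp2b9 and Cyp2b13 were identical over all 120 bases. Cyp2b10 matched either at 76.3% of 118 aligned bases.

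CAR and PXR transcripts themselves varied little. Nr1i3 was at 3.32, 3.26, 3.25 and 3.88, 1.54-fold higher with APS plus metformin than in aging diabetic liver. Nr1i2 was at 2.31, 2.32, 2.33 and 2.56. Of 8 further genes known to respond to CAR or PXR, 2 of the 7 compared were higher in aging diabetic than natural aging liver and 1 was lower, beside 7.98% and 6.21% of all genes. The anion transporter gene Slco1a4 was at 0.43, 2.11, 1.98 and 3.03, and the aldose reductase-like gene Akr1b7 at -2.03, 0.38, 1.35 and 1.40, each lowest in natural aging. Gadd45b, a growth-arrest gene, ran the other way, at 3.44, 2.28, 2.41 and 3.12.

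Several Cyp2b genes belong to the P450 genes that female mouse liver expresses more than male liver, a group of 11 of which 10 were on the arrays. In aging diabetic against natural aging liver, 2 of 6 compared were 2-fold higher and none 2-fold lower, beside 7.98% and 6.21% of all genes, with 4 differences above 0 and 2 below. In APS plus metformin against natural aging, 3 of 7 were higher and none lower, beside 6.15% and 6.47% of all genes, with 6 differences above 0 and 1 below. Apart from Cyp2b10 and Cyp2b13, the higher gene was Cyp3a44, a steroid hydroxylase gene at -2.28, -1.34, 0.53 and -0.28, with an outlier spot on the metformin array. It was 3.99-fold higher with APS plus metformin than in natural aging and 2.08-fold higher than in aging diabetic liver. Its signal was lowest in natural aging. Some other genes of the group were lower on the aging diabetic than on the natural aging array. Flagged spots included, Cyp2c69, Cyp2c40 and Cyp3a16 were below natural aging on every diabetic array, while Cyp3a41a and Cyp2a22 were not. After quantile normalization, Cyp3a16 on the APS plus metformin array was 0.083 above natural aging. Cyp2a4 was 0.15 higher in aging diabetic liver, with an outlier spot there. Cyp2c69 was at 4.54, 4.0, 3.87 and 3.96, highest in natural aging, and 1.46-fold lower in aging diabetic liver, short of the count. Cyp3a41a was 0.22 lower in aging diabetic liver but 0.11 higher after quantile normalization. On the metformin and APS plus metformin arrays it lay 0.086 and 0.070 above natural aging, less than the measurement error of 0.163. After quantile normalization these differences were 0.66 and 0.33. Cyp3a16 and Cyp2a22 were 0.53 and 0.27 lower in aging diabetic liver, with an outlier spot on 1 of the 2 arrays. With APS plus metformin, Cyp2a22 was at 3.95, an outlier spot, against 3.38 in natural aging. Cyp2c40 was at 3.18, 1.99, 1.96 and 2.95, with outlier spots on all arrays but natural aging, so it was not counted. The 2 male-predominant genes were Cyp2d9, a testosterone hydroxylase, at 4.68, 4.58, 3.83 and 4.21 with an outlier spot on the aging diabetic array, and Cyp2u1.

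**Figure D3:**
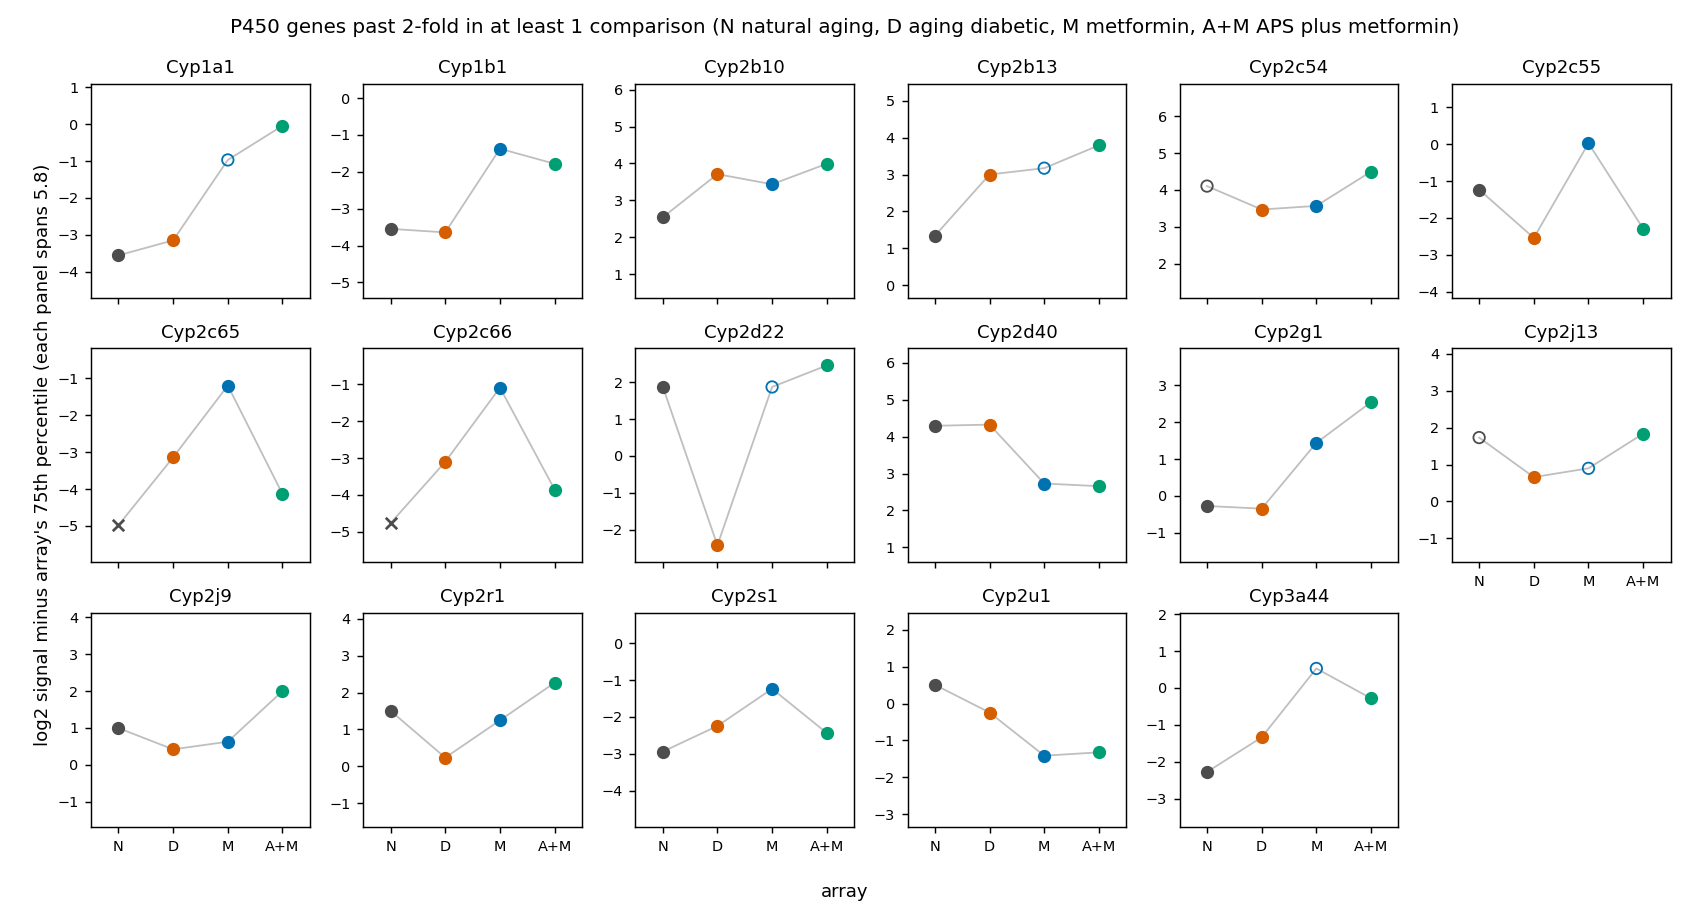
Log2 signal relative to each array's 75th percentile (vertical axis, 5.8 units in each panel) on the natural aging (N), aging diabetic (D), metformin (M) and APS plus metformin (A+M) arrays for the 17 P450 genes counted at 2-fold or more in any comparison; grey lines only join the points of a gene, open circles are outlier spots and crosses are not well above background. Cyp2c55, Cyp2c65, Cyp2c66 and Cyp2s1 peak on the metformin array, Cyp2d22 dips on the aging diabetic array, and Cyp2d40 and Cyp2u1 are lowest on both arrays with metformin.

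Cyp2u1, a fatty acid hydroxylase of broad tissue distribution, was lower on both arrays with metformin. It was at 0.51, -0.24, -1.41 and -1.32, which is 2.25-fold lower with metformin and 2.11-fold lower with APS plus metformin than in aging diabetic liver (error 0.168 log2 in each). Against natural aging it was 3.79-fold and 3.56-fold lower. Cyp2d40, a brighter gene, was also low on these arrays, at 4.30, 4.33, 2.73 and 2.66, or 3.03-fold and 3.18-fold below aging diabetic liver. The 2 arrays with metformin differed from each other by 0.09 in Cyp2u1 and by -0.07 in Cyp2d40, less than the error. No other Cyp2d gene with unflagged spots was 2-fold lower in either comparison with aging diabetic liver. Cyp2d13, annotated as a transcribed pseudogene, was at 2.92, 2.59, 0.85 and 2.08, with outlier spots on all arrays but metformin, so it was not counted.

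Cyp2d22 had the largest single difference of all P450 genes compared. It was at 1.88, -2.42, 1.87 and 2.45, with an outlier spot on the metformin array. Aging diabetic liver was 19.8-fold below natural aging (error 0.186 log2), and APS plus metformin was 29.4-fold above aging diabetic liver. The dip was on the aging diabetic array alone, where the spot carried no outlier flag and was well above background. It rests on 1 probe of 1 transcript, with no second probe to compare, and on 1 array. The other 8 Cyp2d genes gave no value near it, with differences between aging diabetic and natural aging of at most 0.33 in size, flagged spots included.

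Cyp2c55, Cyp2c65 and Cyp2c66, neighbours on chromosome 19 that are known mainly from intestine, were highest on the metformin array. Cyp2c55, which hydroxylates arachidonic acid, was at -1.23, -2.54, 0.024 and -2.29. Cyp2c65 was at -4.98, -3.14, -1.19 and -4.13, and Cyp2c66 at -4.76, -3.10, -1.09 and -3.85, both not well above background in natural aging liver. With metformin the 3 genes were 5.92-fold, 3.85-fold and 4.03-fold higher than in aging diabetic liver (errors of 0.188, 0.224 and 0.218 log2). With APS plus metformin they were 4.98-fold, 7.68-fold and 6.79-fold below metformin. Relative to natural aging, the metformin array was at least 7.03-fold higher for Cyp2c65 and at least 7.56-fold higher for Cyp2c66, set against the lowest signal well above background there.

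Between aging diabetic and natural aging liver, Cyp2c55 was 2.47-fold lower, while Cyp2c65 and Cyp2c66 were higher by bounds of at least 1.83-fold and 1.88-fold (errors of 0.654 and 0.572 log2), short of the count. A second Cyp2c55 probe, dimmer at -3.15, -3.28, -1.75 and -2.69, was also highest on the metformin array (2.9-fold above aging diabetic) but showed only a difference of -0.13 between aging diabetic and natural aging. Cyp2s1, an epithelial enzyme, had a similar shape at -2.94, -2.25, -1.24 and -2.44. It was 2.01-fold higher with metformin than in aging diabetic liver (error 0.183 log2) and 2.29-fold lower again with APS plus metformin. The first of these differences is at the limit and fell to 0.96 after quantile normalization.

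Some markers of other cells were also highest on the metformin array. Vil1, a brush-border gene of intestinal and bile duct epithelium, was at -3.32, -2.50, -0.98 and -2.94, whereas the intestinal factor Cdx2 was not well above background on any array, and Fabp2 was at 4.23, 3.98, 3.81 and 3.90. The 6 lymphocyte markers summed to 3.11, 1.21, 6.57 and 1.49 times the 75th percentile. The stellate cell and fibroblast markers (6 of 7 without an outlier spot) summed to 29.4, 15.6, 31.0 and 22.3. The 4 bile duct markers were highest in natural aging, summing to 3.83, 2.64, 3.64 and 1.82. So were the Kupffer cell and macrophage markers, at 51.6, 35.9, 41.5 and 28.7, and the sinusoidal endothelium markers, at 33.6, 23.3, 27.7 and 27.4. The 3 lung markers summed to 0.0437, 0.0883, 0.367 and 0.0901. Their part in the Cyp1b1, Cyp2c55, Cyp2c65, Cyp2c66 and Cyp2s1 values was not tested.

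The 120 bases before the starts of the 3 neighbouring Cyp2c genes (RefSeq, GRCm38.p6) are shown to compare them; capitals mark TATAAA or the HNF4 word CAAAGTCCA. Cyp2c55 lies at chr19:39006899-39007018, plus strand, Cyp2c65 at chr19:39060886-39061005, plus strand, and Cyp2c66 at chr19:39113778-39113897, plus strand.
Cyp2c55: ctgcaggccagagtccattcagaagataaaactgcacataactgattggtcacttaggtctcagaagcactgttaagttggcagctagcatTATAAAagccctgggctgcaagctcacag
Cyp2c65: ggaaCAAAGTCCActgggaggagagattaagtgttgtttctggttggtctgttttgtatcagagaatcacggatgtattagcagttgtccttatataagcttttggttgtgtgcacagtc
Cyp2c66: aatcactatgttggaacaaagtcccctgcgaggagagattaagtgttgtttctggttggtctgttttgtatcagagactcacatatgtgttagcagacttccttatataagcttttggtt

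Cyp2c65 and Cyp2c66 were identical at 91.7% of 108 aligned bases, and Cyp2c55 matched them at 64.6% of 113 and 61.7% of 107. The words shown were chosen after the sequences had been looked at. Over the 250 bases before each start, on both strands, TATAAA occurred in 25 of the 53 P450 promoters (47.2%), against 14.3% of all promoters. CAAAGTCCA, a word for hepatocyte nuclear factor 4, occurred in 10 (18.9%), against 0.451% of all, and the close copies among the genes are not independent.

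Among the remaining Cyp2c genes, Cyp2c54, an epoxygenase of arachidonic and linoleic acid, was at 4.10, 3.47, 3.57 and 4.5, with an outlier spot in natural aging. It was 2.04-fold higher with APS plus metformin than in aging diabetic liver, and fell short of 2-fold after quantile normalization (0.93 log2). Cyp2c39 was at 0.46, 2.19, 1.38 and 2.56, lowest in natural aging, with outlier spots on the other 3 arrays. A second probe of Cyp2c50, on a transcript variant, was at 0.63, -0.82, 1.09 and 3.33 and was 17.7-fold higher with APS plus metformin than in aging diabetic liver, while the brighter probe that stands for the gene differed by 0.52.

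A further 4 genes were highest with APS plus metformin. Cyp2g1, known from olfactory mucosa, was at -0.27, -0.35, 1.44 and 2.54, with both arrays with metformin above both without. It was 3.44-fold higher with metformin and 7.40-fold higher with APS plus metformin than in aging diabetic liver (error 0.165 log2), and the 2 treated arrays differed 2.15-fold. Cyp2r1, the microsomal vitamin D hydroxylase, was at 1.5, 0.23, 1.25 and 2.27, lowest in aging diabetic liver. It was 2.41-fold lower there than in natural aging and 4.09-fold higher with APS plus metformin, and 2.02-fold higher with metformin, at the limit. Cyp2j9 was at 1.0, 0.42, 0.63 and 2.00, and was 2.99-fold above aging diabetic and 2.59-fold above metformin liver on the APS plus metformin array. Cyp2j13 was at 1.73, 0.66, 0.90 and 1.84, with outlier spots in natural aging and metformin, and was 2.27-fold higher with APS plus metformin than in aging diabetic liver. Its 3 other probes were not well above background on any array. A second probe of Cyp2j5, whose brighter probe stayed within 2-fold, was at 1.56, 0.35, 0.38 and 0.12, highest in natural aging.

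The genes that supply and govern these enzymes were read as whole lists, whereas many of the genes above were named for passing 2-fold. Por was at 4.23, 4.06, 3.68 and 4.17, and none of the 6 electron transfer and membrane partners was past 2-fold in any comparison. Alas1 was at 4.09, 4.07, 3.79 and 4.19. Of 12 genes of haem synthesis and breakdown, only Uros, which closes the ring of the haem precursor, was past 2-fold. It was at 1.53, 1.78, 0.56 and 0.68, lower on both arrays with metformin than in aging diabetic liver. Over all genes, 2.37% to 12.5% were higher and 3.46% to 11.8% lower, depending on the comparison, so lists this short say little.

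Of the 22 regulators, Hnf4a, a master factor of hepatocyte genes, was at 4.07, 3.61, 3.48 and 3.78. Foxa3, a pioneer factor of liver, was at 3.82, 2.56, 2.77 and 3.14, highest in natural aging. Ppargc1a, a coactivator of fasting metabolism, was at 1.63, 1.46, 1.84 and 3.16, which made it 3.25-fold higher with APS plus metformin than in aging diabetic liver. In none of the 6 comparisons did more than 1 regulator, of 19 or 20 compared, pass 2-fold in either direction. This stood beside 2.37% to 12.5% of all genes higher and 3.46% to 11.8% lower.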

How the data were processed

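Liver RNA labelled with Cy5 was measured on 4 one-colour Agilent arrays, 1 per group. Spot intensity in the deposited array files had been background-subtracted by the authors' scanner software, Agilent Feature Extraction (version 11.5.1.1 per the file headers, 10.7 per the submitters' processing notes). The deposited series table holds log2 values, per the labels' protocols from GeneSpring after a normalization not given in the sources used here. Each of its columns correlated most with its own array (r = 0.999 at the lowest), and its medians were 7.84.

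Log2 intensity minus each array's 75th percentile over all non-control probes (1896.85, 2186.88, 2586.05 and 2410.41) was computed with Python 3.11.15, numpy 2.4.6 and pandas 2.3.3. Accessions were matched to RefSeq symbols (GRCm38.p6), and 33767 of 56605 probes matched. The probe with the highest mean stood for a gene. A comparison with an outlier spot was not counted. Where 1 array was not well above background, the difference is a bound, taken against that array's lowest signal well above background or the dim signal, whichever was higher. A first calculation took the percentile over probes with no outlier spot. The percentile over all probes, and the handling of outliers per spot, were chosen after those values had been seen, and the first version is kept as an alternative. Normexp correction (limma 3.58.1, R 4.3.3, offset 50) used the median signal, as the mean signal was not used here.

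The members and gene lists were chosen with earlier results of these data known. Genes named are the brightest of each subfamily, those at 2-fold or more in any of 6 comparisons, and context genes at 2-fold or more, up to 4 per list, plus Ahr, Nr1i2, Nr1i3, Por, Hnf4a and Alas1. Others are named for an outlier spot, a second probe or their place among bright or sex-dependent enzymes, and were picked with their values in view. Some genes and 1 sequence word that these rules cover are not reported here. The counting was checked on simulated data. Alternatives were quantile normalization, normexp, the series table, outlier spots kept, the mean of a gene's probes, 2 other percentiles, and detection on all arrays.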

Additional observations from a re-analysis of the deposited data

How the results depend on the processing

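No paired analysis was possible because each group has 1 array. There was no replicate to leave out, and no value has an error between animals.

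No difference reversed in a counted gene. Of 50 counted differences of single P450 genes, 47 were still 2-fold or more after quantile normalization, 47 with the authors' series values, 46 after normexp correction, 48 with the percentile over probes detected on all arrays and 47 with the percentile over probes with no outlier spot, the alternative added after the data were seen. With the mean of a gene's probes, where probes with any outlier spot are left out, 38 of the 40 that could be compared remained. The losses were in Cyp2s1 and Cyp2r1 (metformin against aging diabetic), Cyp2r1 (APS plus metformin against metformin), Cyp2c54, Cyp2c55 and Cyp2j9. The Cyp2c55 difference between aging diabetic and natural aging was -0.72 with the mean of its probes, and that between APS plus metformin and natural aging -0.30.

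The P450 medians moved with the scaling: to 0.025 (aging diabetic against natural aging), 0.023 (APS plus metformin against metformin) and 0.022 (metformin against natural aging) after quantile normalization, and to 0.019, 0.017 and 0.027 with the authors' series values. With outlier spots kept, 5 P450 genes were lower in aging diabetic than natural aging, 5 were higher in APS plus metformin than metformin, and 4 were lower in metformin than natural aging. With the mean of a gene's probes, 1 was higher in aging diabetic than natural aging and 5 in APS plus metformin than aging diabetic, and the median for APS plus metformin against natural aging was -0.13. Among genes detected on all 4 arrays with no outlier spot, 1 P450 gene was higher in aging diabetic than natural aging, 4 in APS plus metformin than aging diabetic and 4 than natural aging, 2 were lower in APS plus metformin than metformin, and that median was again -0.13. Over all genes, the same restriction, which tests fewer genes, left 597 lower in aging diabetic than natural aging, 992 higher and 348 lower in metformin than aging diabetic, 430 higher in APS plus metformin than aging diabetic, 223 higher and 1044 lower in APS plus metformin than metformin, and 1157 and 595 higher in metformin and in APS plus metformin than natural aging. The cause of the other shifts was not tested. Dim probes limit Cyp2c65, Cyp2c66 and Cyp2j11, whose signals lay near the lowest signal well above background (-4.01 to -4.48).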
